A study of Homo sapiens with 4 samples.

Results

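The tubulin genes described here are 10 genes, taken by their symbols from a table of 40205 rows: the alpha-tubulin genes TUBA1A, TUBA1B, TUBA1C and TUBA4A, the beta-tubulin genes TUBB, TUBB2A, TUBB2B, TUBB3 and TUBB6, and the gamma-tubulin gene TUBG1. All 10 were found under exactly these symbols. They were taken by symbol, but were chosen with earlier results of these data known. They were measured by poly(A) RNA sequencing in U87MG and U251, human glioblastoma cell lines, after stable lentiviral delivery of a short hairpin. The KD libraries carried sh-SRSF1, a hairpin against the splicing factor SRSF1, and the WT libraries carried sh-NC, the control hairpin. Both arms were infected at a multiplicity of infection of 20 and then selected with puromycin for 1 week, so the WT libraries are also infected and selected cells. There was 1 library each for U87MG KD, U87MG WT, U251 KD and U251 WT, and the sources do not say whether the stable cells were pools or clones.

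Microtubules are polymers of alpha-beta-tubulin heterodimers and are nucleated at the centrosome and the spindle by a ring complex built on gamma-tubulin. Vertebrate genomes hold several alpha and several beta genes, called isotypes, whose products are nearly alike in the folded body and differ mainly in the acidic carboxy-terminal tail. Cells regulate tubulin mRNA by its own product: excess soluble tubulin triggers decay of alpha and beta mRNAs while they are being translated, and the mark read is the amino-terminal tetrapeptide of the nascent chain. Class III beta-tubulin (TUBB3) is best known from neurons and is also present in many tumours, and TUBB6 encodes the class V beta isotype.

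The start of the reading frame is shown because it encodes the amino-terminal mark and because it shows how alike the genes are. The first 30 coding bases from GENCODE release 29 transcripts (GRCh38) follow, with the first 4 codons in capitals.
TUBA1A: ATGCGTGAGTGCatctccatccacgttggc
TUBA1B: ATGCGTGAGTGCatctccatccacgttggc
TUBA1C: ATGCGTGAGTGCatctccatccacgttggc
TUBA4A: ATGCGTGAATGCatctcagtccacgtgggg
TUBB: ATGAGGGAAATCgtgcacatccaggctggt
TUBB2A: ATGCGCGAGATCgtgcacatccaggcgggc
TUBB2B: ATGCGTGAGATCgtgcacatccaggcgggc
TUBB3: ATGAGGGAGATCgtgcacatccaggccggc
TUBB6: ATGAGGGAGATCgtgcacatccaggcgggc
TUBG1: ATGCCGAGGGAAatcatcaccctacagttg
TUBA1A, TUBA1B and TUBA1C had 0 mismatches over these bases, and TUBA4A differed from them at 5. TUBB2A and TUBB2B differed at 1 base. The gamma gene opens with other codons.

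The other end of the beta genes is shown because the tail is where isotypes diverge. The last 30 coding bases follow, with the stop codon in capitals.
TUBB: ttcggtgaggaggccgaagaggaggccTAA
TUBB2A: gaggaggaggagggcgaggacgaggctTAA
TUBB2B: gaggaggaggagggcgaggacgaggcgTAG
TUBB3: gaggagtcggaggcccagggccccaagTGA
TUBB6: gaggatgaggaagaggagatcgatggaTAG
Counted position by position back from the stop codon, with no gaps, TUBB and TUBB3 differed at 18 of these positions, against 3 at the start. Their coding sequences differ in length (1335 and 1353 bases), so this count mixes shifts of position with changes of base. TUBB2A and TUBB2B remained close, with 2 mismatches, and the TUBA1A and TUBA1B ends were identical.

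Paralog similarity limits how far the values of single genes can be told apart. Coding sequences were 98.1% identical between TUBB2A and TUBB2B (25 mismatches over 1338 bases) and 97.2% between TUBA1A and TUBA1B. TUBA1C was 97.3% identical to TUBA1B, while TUBA4A was 86.3% identical to it. Among the beta genes outside the TUBB2 pair, TUBB and TUBB6 were the most distant at 81.3%. TUBB6 was also the member with the fewest 31-base words found in any other annotated gene, 6.15% of its transcript, followed by TUBA4A at 11.9%. The shares were 72.2% for TUBA1B, 70.0% for TUBB2A, 53.6% for TUBB2B, 51.6% for TUBA1A, 39.7% for TUBG1, 35.1% for TUBA1C and 31.6% for TUBB. These shared words lay in the coding sequence and hardly in the 3' untranslated regions, where the share was 0% for TUBA1A, TUBA4A, TUBB2A, TUBB2B, TUBB6 and TUBG1. TUBB3 was the exception, with 90.6% of its words shared, nearly all of them (89.5% of its transcript) with AC092143.1, a protein-coding gene annotated over it on the same strand. All these shares are of GENCODE transcripts, and the gene models recovered from the RPKM values can differ from them in length. For TUBA1C the recovered model had 1689 bases against 3001 in the transcript, and for TUBA1A 2769 against 1915. Within the coding sequence of TUBA1C, 72.5% of words were shared, so the share over its whole transcript may understate the overlap. No source used here says how reads that fit several genes were assigned. The split within TUBA1A, TUBA1B and TUBA1C, within TUBB2A and TUBB2B, and between TUBB3 and AC092143.1 is therefore uncertain. The same holds between TUBG1 and the gamma gene TUBG2, which share 36.6% of the words of TUBG1. It also holds between TUBB and the pseudogene TUBBP1, which share 27.1% of the words of TUBB.

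**Figure D1:**
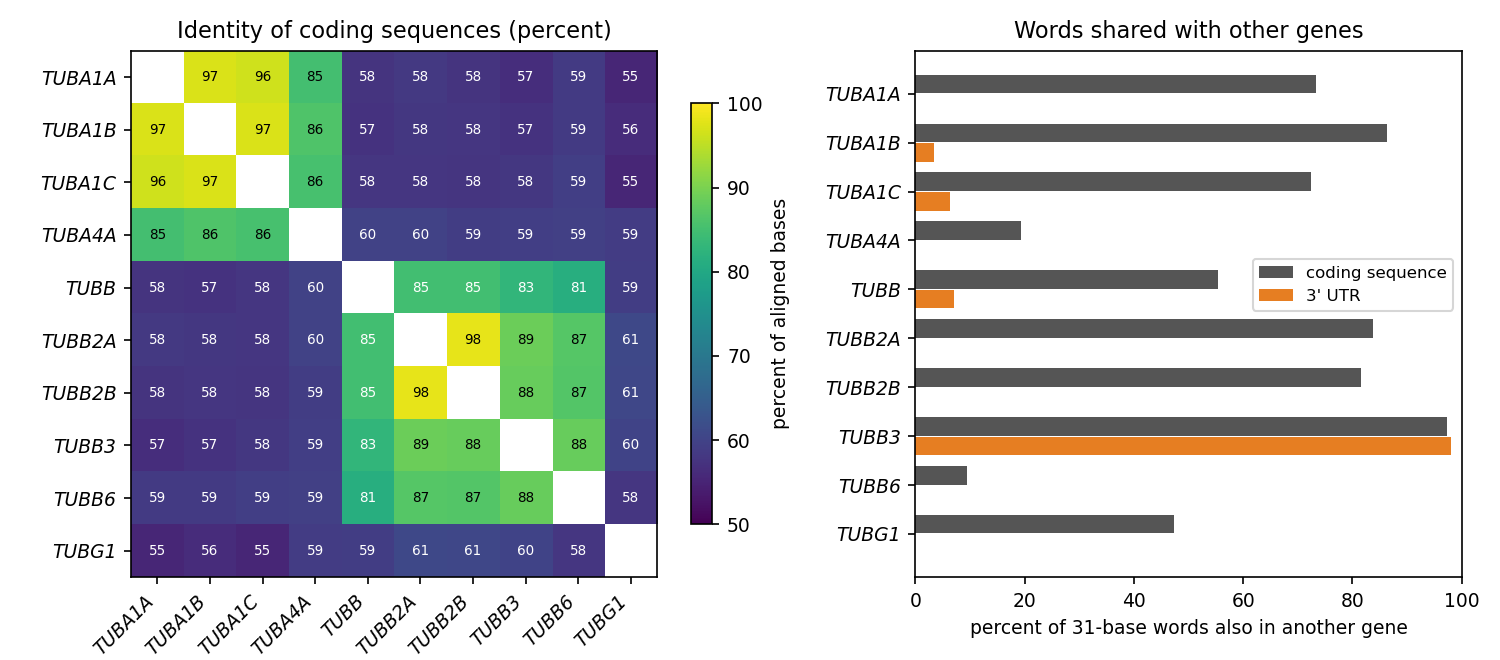
Left, percent identity of aligned coding bases for every pair of the 10 tubulin genes (colour and printed value), from GENCODE release 29. Right, percent of each gene's 31-base words that also occur in another annotated gene, for the coding sequence (grey) and the 3' untranslated region (orange); apart from TUBB3, sharing is a matter of the coding sequence.

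The genes lie on chromosomes 12 (TUBA1A, TUBA1B, TUBA1C), 2 (TUBA4A), 6 (TUBB, TUBB2A, TUBB2B), 16 (TUBB3), 18 (TUBB6) and 17 (TUBG1). The alpha and beta members have 4 coding exons each in these transcripts and TUBG1 has 11. In GRCh38, TUBG1 spans chr17:42609676-42615234 on the forward strand, TUBB6 chr18:12307669-12344320 on the forward strand and TUBA1B chr12:49127782-49131397 on the reverse strand. TUBG1 overlaps RETREG3, TUBB6 overlaps AFG3L2 and TUBA1B overlaps AC011603.2, each on the opposite strand, and TUBA1A and TUBA1C overlap each other on opposite strands. No source used here gives the strand setting of the authors' counting, so reads from such partners cannot be told apart.

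The libraries held 25974900 (U87MG KD), 26298575 (U87MG WT), 27953878 (U251 KD) and 25099799 (U251 WT) reads, as recovered from the steps of the values. Levels are RPKM, reads scaled to the length of the gene model and to the library's total, so genes can be set beside each other. SRSF1 stood at 14.6 RPKM in U87MG KD against 88.3 RPKM in U87MG WT, and at 15.8 RPKM in U251 KD against 109 RPKM in U251 WT. It was lower in the KD library of both lines, by 2.62 ± 0.16 in limma (adjusted p = 0.0022). Of the 8 astroglial and glioma markers, VIM and NES were at 1 RPKM or more in every library, while S100B, AQP4 and ALDH1L1 were below 1 RPKM in all. NES was low in U87MG KD and WT (1.29 and 1.79 RPKM) and high in U251 KD and WT (83.7 and 61.1 RPKM). GFAP did not exceed 1.47 RPKM and OLIG2 did not exceed 2.46 RPKM. SOX2 was at 0.046 and 0.121 RPKM in U87MG KD and WT but at 49.3 and 47.9 RPKM in U251 KD and WT. PTPRC and CD3E, defining leukocyte genes, did not exceed 0.0213 RPKM, while CD68 was at 111 and 62.4 RPKM in U87MG KD and WT and at 10.7 and 8.52 RPKM in U251 KD and WT. Of the neuron markers, SNAP25 and MAP2 were at 1 RPKM or more in every library and RBFOX3 was at 0. In U251 KD and WT the fibroblast marker COL1A2 was at 182 and 174 RPKM and the epithelial marker KRT18 at 19.9 and 22.4 RPKM, while DCN, EPCAM and CDH1 were below 1 RPKM in all libraries.

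The order of levels among the 10 genes was only partly shared by the libraries. Averaged over the 4 libraries, TUBA1B led at 599 RPKM, before TUBA1C (378), TUBB (287), TUBB6 (242), TUBA1A (96.3), TUBB3 (67.2), TUBG1 (46.2), TUBB2A (20.7), TUBA4A (18.9) and TUBB2B (4.12). TUBA1B was above TUBA1C in 4 of 4 libraries, and TUBB3 above TUBG1 in 4 of 4. The neighbours TUBB and TUBB6, TUBB6 and TUBA1A, TUBB2A and TUBA4A, and TUBA4A and TUBB2B each had this order in 2 of 4 libraries, and the order followed the cell line. TUBB6 was above TUBB and TUBA1A, and TUBA4A above TUBB2A and TUBB2B, in both U87MG libraries, and all 4 of these orders were turned round in both U251 libraries. The mean over unlike lines therefore gives these genes no common place. Together the 10 genes took 0.282% of reads in U87MG KD against 0.441% in U87MG WT, and 0.304% in U251 KD against 0.402% in U251 WT.

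**Figure D2:**
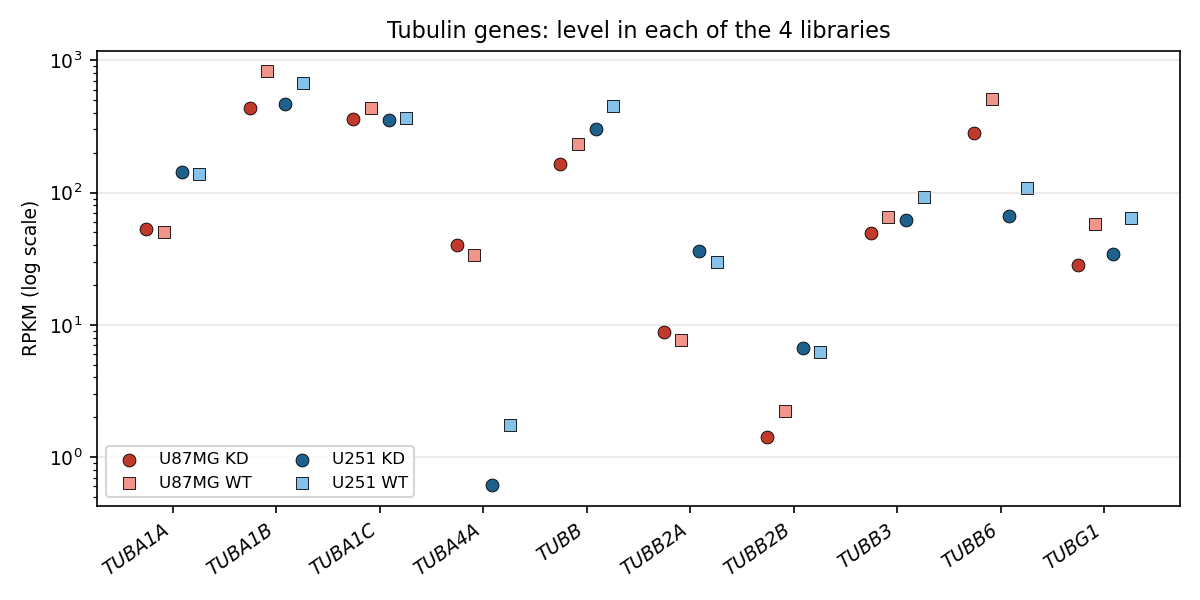
RPKM on a log scale for the 10 tubulin genes in each library (circles KD, squares WT; red U87MG, blue U251), 1 value per library. For TUBG1, TUBA1B, TUBA1C and TUBB3 both KD values lie below both WT values, and TUBA4A shows the widest gap between the cell lines.

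The first comparison asked what the SRSF1 hairpin went with in each line. TUBG1, TUBB6 and TUBA1B fell in the KD libraries, by 0.95, 0.78 and 0.74 on the log2 scale of RPKM + 1, and no member was called higher. All 10 genes passed the filter of 1 RPKM in at least 1 library and were tested with 16098 genes in all. The count of 3 lower members compares with 2.61% of all genes called lower (420 genes), 1.16% called higher and 3.76% called in either direction. Each line and arm had 1 library, so values within a line stand without a test, and the test across lines rests on 2 libraries per arm. In bulk RNA, fewer cells of a kind and less RNA per cell cannot be told apart.

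TUBG1 encodes gamma-tubulin, the nucleating member of the family. It was at 28.4 RPKM in U87MG KD against 57.9 RPKM in U87MG WT, and at 34.0 RPKM in U251 KD against 64.3 RPKM in U251 WT. Both KD libraries were below both WT libraries, and the lines showed almost the same ratio. From the recovered reads, the ratio of KD to WT was 0.491 in U87MG, with a 95% interval by the Clopper-Pearson method of 0.461 to 0.523. In U251 it was 0.529, with an interval of 0.499 to 0.560, and all such intervals cover counting error only. The limma estimate over both lines was -0.95 with an SE of 0.16 (adjusted p = 0.027, 2 libraries per arm). On the scale of RPKM + 1 it was the only member at least 2-fold lower in U87MG, where 3.58% of all genes were, and no member was in U251, where 1.71% were. That scale understates low genes: by reads, TUBA4A in U251 KD was at 0.351 times its U251 WT level (0.241 to 0.504). No member was at least 2-fold higher in KD in either line on the scale of RPKM + 1, against 2.33% of all genes in U87MG and 1.17% in U251.

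Among the alpha genes the most abundant member moved and its near copies moved less. TUBA1B, a widely expressed alpha gene, was at 432 RPKM in U87MG KD against 823 RPKM in U87MG WT, and at 463 RPKM in U251 KD against 677 RPKM in U251 WT. Both KD libraries were again below both WT libraries. The read ratio was 0.525 in U87MG (0.516 to 0.534) and 0.684 in U251 (0.673 to 0.696), and limma gave -0.74 ± 0.15 (adjusted p = 0.043). TUBA1C, an alpha gene expressed in many tissues, was at 357 RPKM in U87MG KD against 439 RPKM in U87MG WT, and at 353 RPKM in U251 KD against 365 RPKM in U251 WT. Its groups did not overlap, but the difference was small and was not called (-0.17 ± 0.15, adjusted p = 0.54). The 4 members whose KD libraries both lay below both WT libraries were TUBG1, TUBA1B, TUBA1C and TUBB3, compared with 14.4% of all genes.

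TUBA1A, the alpha gene prominent in developing neurons, was at 53.0 RPKM in U87MG KD against 50.5 RPKM in U87MG WT, and at 144 RPKM in U251 KD against 138 RPKM in U251 WT. Its values separate the lines and not the arms (limma 0.064 ± 0.16, adjusted p = 0.85). TUBA4A, another alpha gene, was at 39.8 RPKM in U87MG KD against 33.6 RPKM in U87MG WT, and at 0.616 RPKM in U251 KD against 1.75 RPKM in U251 WT. The U251 values rest on 43 and 110 reads. The gene was higher in KD in U87MG and lower in KD in U251, and limma over both lines gave -0.27 ± 0.24 (adjusted p = 0.57).

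Among the beta genes, TUBB6 was called and TUBB and TUBB3 were lower in both lines without passing the test. TUBB6 was at 281 RPKM in U87MG KD against 512 RPKM in U87MG WT, and at 66.4 RPKM in U251 KD against 108 RPKM in U251 WT. Within each line KD was below WT, but the U87MG KD value exceeded the U251 WT value, so the arms overlap when the lines are mixed. The read ratio was 0.548 in U87MG (0.537 to 0.559) and 0.617 in U251 (0.592 to 0.643), and limma gave -0.78 ± 0.15 (adjusted p = 0.038). TUBB6 is also the member with the least sequence in common with other genes.

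TUBB, the class I beta gene used by most cells, was at 163 RPKM in U87MG KD against 235 RPKM in U87MG WT, and at 301 RPKM in U251 KD against 447 RPKM in U251 WT. The read ratios were close to each other, 0.696 (0.679 to 0.713) in U87MG and 0.674 (0.662 to 0.686) in U251. Limma gave -0.54 ± 0.14 with an adjusted p of 0.083, and after quantile normalization the adjusted p was 0.042. TUBB3 was at 49.3 RPKM in U87MG KD against 65.5 RPKM in U87MG WT, and at 61.7 RPKM in U251 KD against 92.4 RPKM in U251 WT. All KD values were below all WT values, with -0.49 ± 0.16 by limma (adjusted p = 0.14).

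The class II pair did not follow. TUBB2A was at 8.84 RPKM in U87MG KD against 7.64 RPKM in U87MG WT, and at 36.4 RPKM in U251 KD against 29.8 RPKM in U251 WT. KD was the higher library in both lines, with a read ratio of 1.16 in U87MG, whose interval just includes no difference, and 1.22 in U251 (1.14 to 1.31), and limma gave 0.23 ± 0.16 (adjusted p = 0.45). TUBB2B was at 1.43 RPKM in U87MG KD against 2.24 RPKM in U87MG WT (75 and 119 reads), and at 6.63 RPKM in U251 KD against 6.20 RPKM in U251 WT. It was lower in KD in U87MG and slightly higher in KD in U251, and was not called (-0.17 ± 0.19, adjusted p = 0.66).

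**Figure D3:**
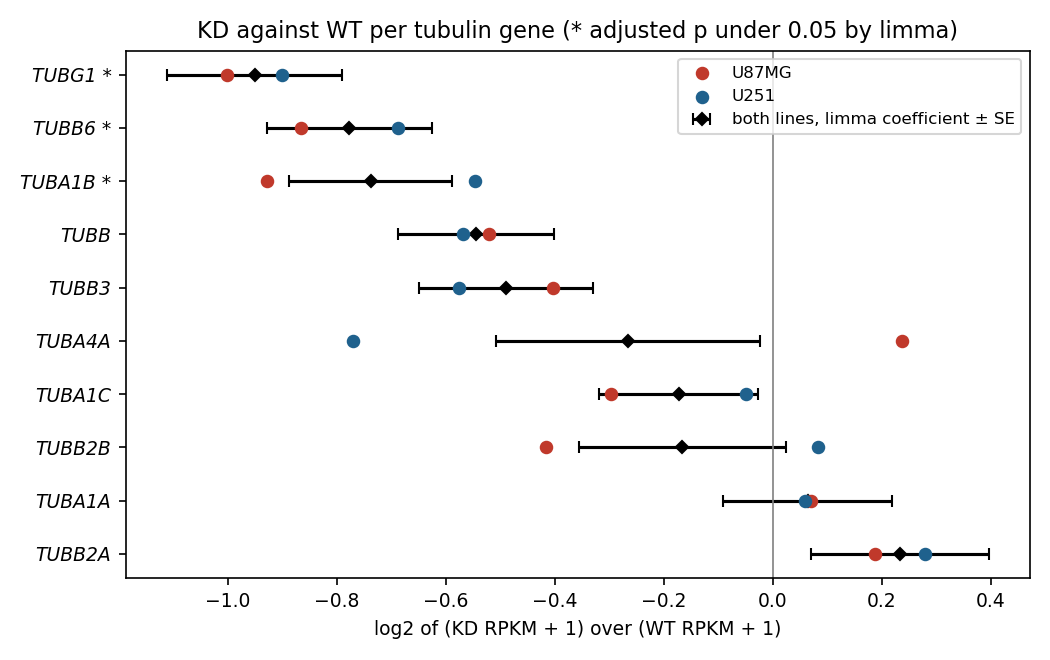
Log2 of KD over WT (RPKM + 1) for each tubulin gene in U87MG (red) and U251 (blue), with the limma coefficient over both lines and its SE (black; n = 2 libraries per arm). TUBG1, TUBB6 and TUBA1B carry an asterisk (adjusted p under 0.05), and TUBA4A and TUBB2B have 1 line on each side of 0.

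Counted over the family, 6 of 10 members were lower in KD in both lines (36.5% of all genes tested), 2 were higher in both (29.3%) and 2 went opposite ways (31.8%). The median log2 ratio of the members was -0.41 in U87MG and -0.56 in U251, against -0.053 and -0.0037 over all genes tested. The calls for TUBG1, TUBB6 and TUBA1B were lost, with the direction kept, after rescaling the libraries by trimmed means (TMM, adjusted p of 0.079, 0.085 and 0.092). That rescaling left 11 calls among all genes.

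**Figure D4:**
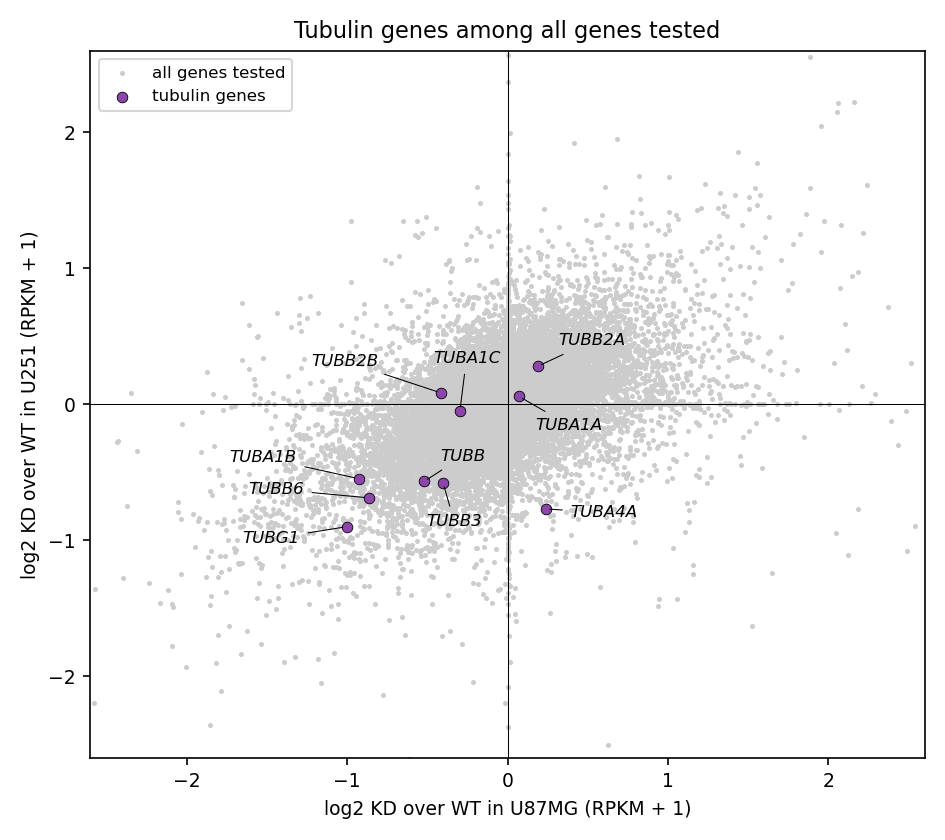
Log2 KD over WT in U87MG (x axis) against U251 (y axis) for 16098 genes (grey) and the 10 tubulin genes (purple, labelled); 18 genes lie outside the plotted range. TUBG1, TUBB6 and TUBA1B lie at the lower left, while TUBA1A and TUBB2A lie just above 0 on both axes.

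Sums over isotypes were also taken, since a split of reads among near copies may touch them less than single genes. Whether it does depends on how reads with several matches were treated, which is not stated, and was not tested. The 4 alpha members summed to 882 RPKM in U87MG KD against 1346 RPKM in U87MG WT (0.655 times), and to 960 RPKM in U251 KD against 1182 RPKM in U251 WT (0.813 times). The 5 beta members summed to 504 RPKM in U87MG KD against 822 RPKM in U87MG WT (0.612 times), and to 472 RPKM in U251 KD against 683 RPKM in U251 WT (0.692 times). Both sums were lower in KD in both lines, and adding all other tubulin and pseudogene rows left the ratios at 0.654 and 0.812 for alpha and at 0.614 and 0.688 for beta. No test was made of these sums.

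The makeup within each family also differed between the arms. TUBA1B made up 49.0% of the alpha sum in U87MG KD against 61.1% in U87MG WT, and 48.2% in U251 KD against 57.3% in U251 WT. TUBA1C made up 40.5% against 32.6% in U87MG and 36.7% against 30.9% in U251, in KD against WT. The RPKM of TUBA1C itself was lower in KD in both lines, so its higher share was not a higher level. As the split of reads among TUBA1A, TUBA1B and TUBA1C is uncertain, so are these alpha shares. For beta, TUBB4B, a class IV gene outside the 10 but abundant here, was added to the sum. TUBB then made up 22.0% of the 6 beta genes in U87MG KD against 19.4% in U87MG WT, and 47.6% in U251 KD against 48.6% in U251 WT. TUBB6 made up 37.8% in U87MG KD against 42.3% in U87MG WT, and 10.5% in U251 KD against 11.7% in U251 WT. Between the arms these beta shares thus differed by a few points, and for TUBB in opposite directions in the lines. Between the cell lines they differed by far more. No test was made of the shares.

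**Figure D5:**
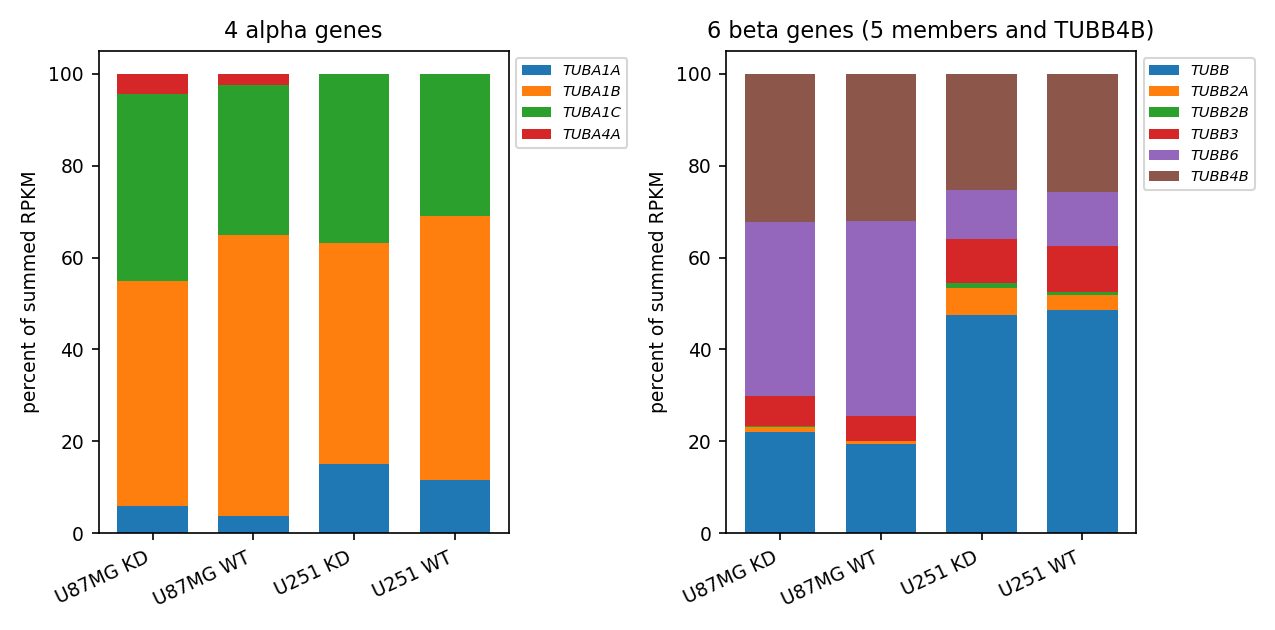
Percent of summed RPKM taken by each isotype gene in each library, for the 4 alpha genes (left) and for the 5 beta members with TUBB4B (right), 1 library per bar. TUBB6 is the leading beta gene in both U87MG libraries and TUBB in both U251 libraries.

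The second comparison was between the cell lines, U87MG against U251, with the arm as a covariate. By limma, TUBA4A and TUBB6 were higher in U87MG, and TUBA1A, TUBB, TUBB2A and TUBB2B were lower in U87MG. The remaining 4 were not called. Over all genes tested, 21.6% were called higher and 27.0% lower in U87MG, so 6 called members of 10 lie near the 48.6% called in all, and the count says nothing particular about tubulins. The leading beta gene differed, TUBB6 in U87MG and TUBB in U251, while TUBA1B and then TUBA1C led the alpha sum in every library.

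TUBA4A had the widest gap. Its level in U87MG was 64.6 times that in U251 in KD (interval 47.9 to 89.5) and 19.2 times in WT (15.8 to 23.4), and limma gave 4.15 ± 0.24 (n = 2 libraries per line, adjusted p = 1.1e-05). TUBB6 was 4.23 times higher in U87MG in KD (4.08 to 4.39) and 4.76 times in WT (4.63 to 4.90), with 2.15 ± 0.15 by limma (adjusted p = 2.7e-05). The sign was the same in both arms for each. TUBB went the other way, at 0.542 times the U251 level in KD and 0.525 times in WT (-0.90 ± 0.14, adjusted p = 0.0017). TUBB2A, at 0.243 times in KD and 0.256 times in WT, was lower in U87MG by 1.88 ± 0.16 (adjusted p = 8.2e-05). TUBA1A was lower by 1.43 ± 0.16 and TUBB2B by 1.40 ± 0.19, each in both arms. TUBB2A and TUBB2B share most of their coding words, and whether reads shared between them enter both differences was not tested.

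TUBA1B, TUBA1C and TUBG1 showed line coefficients of 0.090 ± 0.15, 0.14 ± 0.15 and -0.20 ± 0.16, none called, and TUBB3 -0.40 ± 0.16 (adjusted p = 0.070). The signs of TUBA1B and TUBA1C turn negative after quantile normalization (-0.32 and -0.12). The alpha sum in U87MG was 0.918 times that in U251 in KD and 1.14 times in WT, and the sum of the 5 beta members 1.07 times in KD and 1.20 times in WT. With TUBB4B added, the beta sum in U87MG was 1.17 times that in U251 in KD and 1.32 times in WT. Single isotypes differed by more, up to the 64.6 times of TUBA4A in KD.

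Other tubulin genes were read from a list of 13, of which 5 reached 1 RPKM in a library. TUBD1, encoding delta-tubulin of centrioles, fell to 0.417 RPKM in U87MG KD, against 1.75 RPKM in U87MG WT, and to 2.94 RPKM in U251 KD, against 7.37 RPKM in U251 WT (-1.02 ± 0.18, adjusted p = 0.029). It was the only one of the 5 called, against 3.76% of all genes tested called in either direction. TUBB4B was at 240 RPKM in U87MG KD against 389 RPKM in U87MG WT, and at 161 RPKM in U251 KD against 237 RPKM in U251 WT (-0.63 ± 0.15, adjusted p = 0.060). TUBG2, the second gamma gene, whose coding sequence is 94.7% identical to TUBG1, was at 6.18 RPKM in U87MG KD against 11.7 RPKM in U87MG WT, and at 10.4 RPKM in U251 KD against 14.0 RPKM in U251 WT. Its difference was not called (-0.61 ± 0.18, adjusted p = 0.11). TUBE1, encoding epsilon-tubulin, and TUBB8 had limma estimates of 0.092 ± 0.16 and -0.34 ± 0.20. TUBA3C, TUBA3D and TUBA3E, the testis-type alpha genes, were listed at 0 in all libraries.

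Rows for tubulin pseudogenes numbered 35, of which 8 reached 1 RPKM. They summed to 31.4 RPKM in U87MG KD against 55.2 RPKM in U87MG WT, and to 66.0 RPKM in U251 KD against 93.8 RPKM in U251 WT. That was 1.84% and 2.05% of all tubulin RPKM in U87MG KD and WT, and 3.85% and 4.10% in U251 KD and WT. Copies of expressed tubulin mRNA can draw reads from their parent genes, and how often this happened was not tested.

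Genes that act on tubulin were described by lists, chosen with earlier results of these data known. Of 23 folding genes (chaperonin, prefoldin and tubulin cofactors), 1 was called higher and 1 lower, against 1.16% and 2.61% of all genes tested. CCT3, a subunit of the chaperonin that folds tubulin, fell to 72.4 RPKM in U87MG KD, against 137 RPKM in U87MG WT, and to 140 RPKM in U251 KD, against 269 RPKM in U251 WT (-0.93 ± 0.15, adjusted p = 0.025). PFDN2, a subunit of prefoldin, which hands tubulin to that chaperonin, rose (0.67 ± 0.14, adjusted p = 0.049). PFDN6 had 0.55 ± 0.16 and TCP1 -0.49 ± 0.15, neither called. The list median was -0.12, against -0.034 over all genes tested.

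Of 21 gamma-tubulin ring and augmin genes tested, 14 were lower in KD in both lines, against 36.5% of all genes, and 6 went opposite ways. The median log2 ratio of KD over WT was -0.52 in U87MG and -0.11 in U251, and the median limma coefficient was -0.38. PCNT, the pericentrin scaffold that anchors gamma-tubulin rings, was the only one called (-0.81 ± 0.17, adjusted p = 0.049), against 2.61% of all genes called lower. The small ring subunits MZT2B (-0.82 ± 0.18, adjusted p = 0.0502) and MZT2A (-0.67 ± 0.17) and the augmin subunit HAUS3 (-0.70 ± 0.16) were not called.

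Genes of tubulin mRNA autoregulation (TTC5, which reads the nascent tetrapeptide, SCAPER and subunits of the CCR4-NOT deadenylase) had 0 of 11 called by limma. Of the 11, 9 were lower in KD in both lines, against 36.5% of all genes tested, and 2 went opposite ways. The median coefficient was -0.22, against -0.034 over all genes tested. CNOT2 (-0.47 ± 0.17) and CNOT10 (-0.37 ± 0.19) had the largest coefficients by size among those named by expression. Tubulin-modifying enzymes had 0 of 16 called, and over all genes tested 3.76% were called. HDAC6, a tubulin deacetylase, was at -0.67 ± 0.17 and AGTPBP1, a tubulin deglutamylase, at 0.42 ± 0.16. Of 7 severing enzymes 1 was called lower, against 2.61% of all genes. It was KATNAL1, a katanin-like subunit (-1.32 ± 0.19, adjusted p = 0.021), named here after its values were seen.

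Among 29 microtubule-associated and plus-end genes tested, 1 was called, against 3.76% of all genes. STMN1, encoding stathmin, which sequesters tubulin dimers, fell to 134 RPKM in U87MG KD, against 364 RPKM in U87MG WT, and to 223 RPKM in U251 KD, against 413 RPKM in U251 WT (-1.16 ± 0.17, adjusted p = 0.021). TACC3, a spindle protein, was at -0.87 ± 0.23, EML1, a microtubule-associated protein, at 0.77 ± 0.18 and CLIP1, a plus-end tracking protein, at 0.67 ± 0.16, none called, and the list median was 0.031. Of 11 spindle genes, 7 were called lower, against 2.61% of all genes, 11 were lower in both lines, against 36.5%, and the median was -1.08. After TMM rescaling limma called 0 of the 11, although the 7 kept an unadjusted p under 0.05, and without the intensity trend it called 2. PRC1, which bundles midzone microtubules, fell by 1.64 ± 0.21 and KIF11, a spindle motor, by 1.23 ± 0.22. ASPM, a spindle pole protein, was at 5.37 RPKM in U87MG KD against 22.3 RPKM in U87MG WT, and at 29.3 RPKM in U251 KD against 65.1 RPKM in U251 WT. Like TUBG1, TUBB6 and TUBA1B, these proliferation-linked genes were lower in KD in both lines, with a median log2 ratio of -1.58 in U87MG and -0.61 in U251. TUBG1, TUBB6, TUBA1B and TUBA1C also had the larger fall in U87MG, while TUBB and TUBB3 had it in U251. For U87MG minus U251, the median coefficient of the spindle genes was -1.06. The members lower in KD in both lines had 2.15 (TUBB6), 0.14 (TUBA1C), 0.090 (TUBA1B), -0.20 (TUBG1), -0.40 (TUBB3) and -0.90 (TUBB). These line coefficients describe levels, and do not bear on the differences between KD and WT. The part of the spindle genes in the tubulin differences was not tested. Of 10 genes of other filaments and the lamina, 1 was called, against 3.76% of all genes: LMNB1, encoding lamin B1 (-1.43 ± 0.28). VIM, encoding vimentin, was at 1158 RPKM in U87MG KD against 1675 RPKM in U87MG WT, and at 1065 RPKM in U251 KD against 1341 RPKM in U251 WT (-0.43 ± 0.13, adjusted p = 0.11).

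The genes whose pattern over the 4 libraries was most like a member were ranked by Euclidean distance of centred log2 values among 4834 genes. For TUBB these were CHD1L (distance 0.053), FBXL5 (0.078) and ACADM (0.11), against a median distance of 1.15. For TUBB3 they were DCK (0.082), HNRNPLP2 (0.13) and SNX7 (0.14), against a median of 0.84. These rankings describe 4 libraries only.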

How the data were processed

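Bowtie 0.12.2 and the hg19 build are named in the submitters' processing notes. The table deposited by the authors gives gene-level RPKM, scaled by the authors to gene model length and library size, with 1 column per library. Counting program, annotation, strand setting and treatment of reads with several matches were not stated in any source used here. The members and gene lists were chosen with earlier results of these data known.

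Whole reads were recovered from the steps of the RPKM values. Library totals came from small RNA genes with lengths in RefSeq, and the shortest gene model up to 40000 bases giving whole reads in every library within 0.01 reads was taken, which succeeded for 27928 of 27973 genes (99.8%). Read ratios carry 95% exact Clopper-Pearson intervals, which cover counting error only. In a gene model of 1 kilobase, 1 read was worth 0.0358 to 0.0398 RPKM.

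Ratios used log2 of RPKM + 1, which understates changes of low genes. Limma 3.58.1 in R 4.3.3 was fitted to 16098 genes with at least 1 RPKM in at least 1 library, with cell line and arm as terms, an intensity trend, two-sided tests and Benjamini-Hochberg adjustment over all genes. The cell line pairs the libraries of the arms, since both arms of a pair are the same cell line. The fit leaves 1 residual degree of freedom, so p-values lean on variance shared across genes and measure only the spread between these libraries, which may be technical. On simulated data its calls recovered most changed genes but held a larger share of unchanged genes than the adjusted p allows. Since the table held RPKM and no counts, no count test was run. Alternatives were a pseudocount of 0.1, no filter, TMM rescaling, quantile normalization, no trend, no block, and leaving out libraries.

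Named genes were all members, SRSF1, other tubulin genes at 1 RPKM or more, and up to 4 per list with at least 5 RPKM in each line, ranked by absolute coefficient; for TUBB and TUBB3, the 3 genes nearest in pattern among those with at least 10 RPKM in every library. SVBP was matched through its older symbol CCDC23 and all other genes by symbol. Coding sequences, coordinates and 31-base words came from GENCODE release 29 (GRCh38), with no conversion from hg19. Identities were computed with Biopython 1.88. Tables were made in Python 3.11.15 using pandas 2.3.3, numpy 2.4.6 and scipy 1.17.1, and figures with matplotlib 3.10.9.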

Additional observations from a re-analysis of the deposited data

Results flagged for a closer look

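TUBA4A lay on opposite sides of no change in the lines, with a log2 KD over WT of 0.24 in U87MG and -0.77 in U251, where the values rest on 43 (KD) and 110 (WT) reads. TUBB2B did so the other way round, with -0.42 in U87MG, from 75 (KD) and 119 (WT) reads, and 0.08 in U251. Neither difference between the lines was tested, as 1 library per line and arm leaves nothing to estimate its error from, and 31.8% of all genes tested had opposite directions.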

How the results depend on the processing

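With 1 library per line and arm, counts of calls over all genes depended on the fit. KD against WT, 186 genes were called higher and 420 lower by limma. The counts were 0 and 0 with no filter on low values (1234 and 1890 at an unadjusted p under 0.05), 6 and 5 after TMM rescaling, 88 and 172 without the intensity trend, and 315 higher after quantile normalization. The paired fit uses the cell line as replicate block: with no replicate block, limma called 0 and 0 (79 and 183 at an unadjusted p under 0.05). TUBG1, TUBB6 and TUBA1B kept their direction but lost the call with no filter (adjusted p of 0.42 for each), after TMM rescaling, without the trend (0.051, 0.076 and 0.096) and with no block (adjusted p of 0.9998 for each), and TUBB was called only after quantile normalization. Of the 14 calls in the other gene lists, limma kept 0 after TMM rescaling, with no filter and with no block, 5 without the trend, 12 with a pseudocount of 0.1 and 14 after quantile normalization; an unadjusted p under 0.05 was kept by 14 after TMM rescaling and with no filter and by 3 with no block. Between the lines, 1856 and 2430 genes were called higher and lower in U87MG with no filter, and 1960 and 2482 with no arm covariate, where TUBB lost its call (adjusted p = 0.069). TUBB3 gained a call between the lines after quantile normalization (adjusted p = 0.036), where the signs of TUBA1B (-0.32) and TUBA1C (-0.12) reversed. At 2-fold with a pseudocount of 0.1, 726 genes were higher and 1101 lower in U87MG KD, and 470 and 719 in U251 KD. The summed alpha and beta log2 ratios in U87MG were -0.50 and -0.59 after TMM rescaling, against -0.61 and -0.71. Leaving out a line gives the other line's ratio with no test, and reversed the KD estimate of TUBA4A (range -0.77 to 0.24; 0.24 from U87MG alone) and of TUBB2B (range -0.42 to 0.084; 0.084 from U251 alone). Leaving out an arm, the line estimate of TUBA1B ranged between -0.10 without the WT libraries and 0.28 without the KD libraries. The causes of these shifts were not tested.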

Other observations

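The pseudogene TUBBP2, chosen after its values were seen, differed between the lines far more than TUBB. It was at 0.42 and 0.80 RPKM in U87MG KD and WT, and at 12.7 and 23.3 RPKM in U251 KD and WT, with -3.51 ± 0.18 for U87MG minus U251 by limma (adjusted p = 7.8e-06). As a percent of TUBB it stood at 0.257% and 0.342% in U87MG KD and WT and at 4.22% and 5.20% in U251 KD and WT. TUBBP1, a further copy of TUBB, stayed at 7.61% and 8.81% of TUBB in U87MG KD and WT and at 8.43% and 7.56% in U251 KD and WT.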
